A study of Schizosaccharomyces pombe with 24 samples.

Results

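Gene expression in *S. pombe* (fission yeast) libraries that carry the label *set1*Δ was set against WT over the whole table of genes. This used 6 of the 24 RNA-seq libraries, 3 per genotype, chosen by their sample labels alone. The labels name no treatment, and RNA was selected with oligo(dT) beads. WT was given as TK8 (*h*+ *ade6-M216 leu1-32 ura4-D18*). The label of the *set1* libraries was not uniform, since their title names a deletion and their genotype field a knockdown. The study's legends also give different strains for it, YGF285 and FY14106, of which the strain list holds the latter (*h*+ *leu1-32 ura4-D18 set1*Δ::*kanMX6*). By that list the strain would carry no *ade6-M216*, so that an effect of *ade6* and one of *set1* cannot be told apart. The other 18 libraries came from 6 H2B point mutants (*htb1-E75Q*, *htb1-D67N*, *htb1-P102L*, *htb1-E112K*, *htb1-G52D* and *htb1-E34K*, 3 libraries each) and were used to show where the libraries labelled *set1*Δ differed from the rest of the series.

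Set1 is the catalytic subunit of the COMPASS complex, which places methyl groups on lysine 4 of histone H3 at the start of transcribed genes. The complex also holds Swd1, Swd2, Swd3, Spf1, Ash2, Sdc1 and Shg1, and its activity depends on the ubiquitination of H2B by the HULC complex. In fission yeast Set1 is known for keeping down genes near chromosome ends, retrotransposons and genes of stress and of sexual differentiation.

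The *set1* transcript went against the deletion label. The count for *set1* (SPCC306.04c, chromosome III, 412293 to 415947, minus strand in ASM294v3) was 20, 20 and 32 reads in the WT libraries and 336, 362 and 412 in the libraries labelled *set1*Δ. It lay between 18 and 150 in the 18 H2B mutant libraries, so the libraries labelled *set1*Δ held the 3 highest values of the series, and they did not overlap any other library. In CPM, counts scaled to the library size by the TMM method, the mean was 1.11 ± 0.188 (SD, n = 3) in WT and 14.2 ± 1.55 in the other group. The difference was 3.66 on the log2 scale (SE 0.187, adjusted p = 1.75e-06, edgeR's quasi-likelihood test). Counts were deposited for whole genes, so it was not tested whether these reads fell inside or outside a deleted stretch, and the genotype of these libraries was not settled by the data. The wording "labelled *set1*Δ" is used for that reason, and every direction given below belongs to the label.

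**Figure D1:**
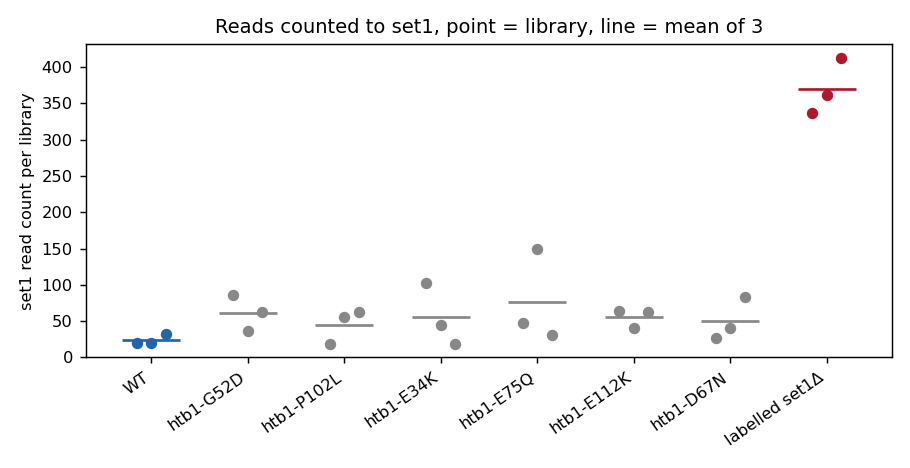
Reads counted to *set1* in each of the 24 libraries (y axis, raw read count, starting at 0) by genotype (x axis). Points are libraries and lines are means of 3. The 3 libraries labelled *set1*Δ sit between 336 and 412, and the 3 WT libraries between 20 and 32.

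No other subunit of the Set1 complex passed both thresholds set for a call, a Benjamini-Hochberg adjusted p below 0.05 and a 2-fold or larger difference. *swd2* was nearest, with 2.72 ± 0.287 CPM in WT and 1.42 ± 0.182 CPM in the libraries labelled *set1*Δ (log2 fold change -0.95, adjusted p = 0.00863). *swd2* was called lower without WT replicate 2 (-1.03, adjusted p = 0.0113), without *set1*Δ-labelled replicate 1 (-1.02), in the fit over 24 libraries (-1.01) and with a correction for gene length (-1.02). *swd1*, *swd3*, *spf1*, *ash2* and *sdc1* lay between -0.79 and 0.43 on the log2 scale, all with an adjusted p above the threshold. *shg1*, at 0.335 CPM in WT and 0.401 CPM in the libraries labelled *set1*Δ, was too low to be tested. Of the HULC subunits and the H2B deubiquitination module, *brl1*, the E3 ubiquitin ligase of H2B, was called higher (log2 fold change 1.73, SE 0.289, adjusted p = 0.00168). Its counts rose from 15, 14 and 22 in WT to 53, 58 and 98. Scaled over 24 libraries, its mean was 0.962 CPM in WT and 3.08 CPM in the libraries labelled *set1*Δ. The H2B mutant means ran from 2.06 CPM (*htb1-P102L*) to 5.68 CPM (*htb1-D67N*). In the comparison with the mean of these mutants *brl1* was at -0.27 (adjusted p = 0.365). An annotated non-coding RNA covers 98.6% of *brl1* on the other strand, and since the use of strand in counting is not stated, reads of the pair cannot be told apart.

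The library totals were 22578239 to 23471642 counts in WT and 19250529 to 28181070 in the libraries labelled *set1*Δ. The first principal component of the 6 libraries held 60.6% of the variance and separated the genotypes, and the second held 15.8% and set WT replicate 3 apart from the other WT libraries. That library held 865 reads of *ura4* and 103 of *mat1-Mc*, an M mating-type gene, against 0 of both in the other 2 WT libraries and in all 3 labelled *set1*Δ. These reads go against the *ura4-D18 h*+ genotype given for WT, and values without WT replicate 3 are given beside the genes and lists they move most. The H2B mutant libraries *htb1-G52D* replicates 1 and 2 and *htb1-P102L* replicates 1 and 2 held 78 to 238 *mat1-Mc* reads, and replicate 3 of each held 0. The strain list gives both mutants as *h*- with *ura4-D18*, so their mating type is not that of WT. *mat1-Mc* reads go with *h*-, and the 0 in each replicate 3 does not. The first of each pair also held 1382 and 712 *ura4* reads, which go against *ura4-D18*. The part of these reads in the results was not tested.

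Of 4845 genes tested, 313 (6.46%) were called, 250 (5.16%) higher and 63 (1.3%) lower in the libraries labelled *set1*Δ. The genes that rose were weakly expressed, with a median of 2.03 CPM in WT against 6.6 CPM in the libraries labelled *set1*Δ, while the median over all tested genes was 8.76 CPM in WT. The genes that fell were stronger, with medians of 31.2 and 11.8 CPM. A call against WT favours low WT values among rises and high ones among falls, so these medians are partly fixed by the selection. Most changes were moderate: 191 of the rises were below 4-fold, 59 reached 4-fold and 15 reached 8-fold, and among the falls 55 were below 4-fold, 8 reached it and 3 reached 8-fold. The 3 libraries of each group did not overlap in 249 of the higher and 62 of the lower genes. The calls were made on the same libraries and largely fix this in advance, so it is no separate support. Without WT replicate 3 the counts were 262 higher and 87 lower, of which 215 and 55 were called with all 6 libraries too. The split depended on scaling, since 79.9% of the calls were higher with TMM and 91.6% (381 higher, 35 lower) with scaling to the total count, which moved the median log2 fold change of all genes from 0.01 to 0.21.

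**Figure D2:**
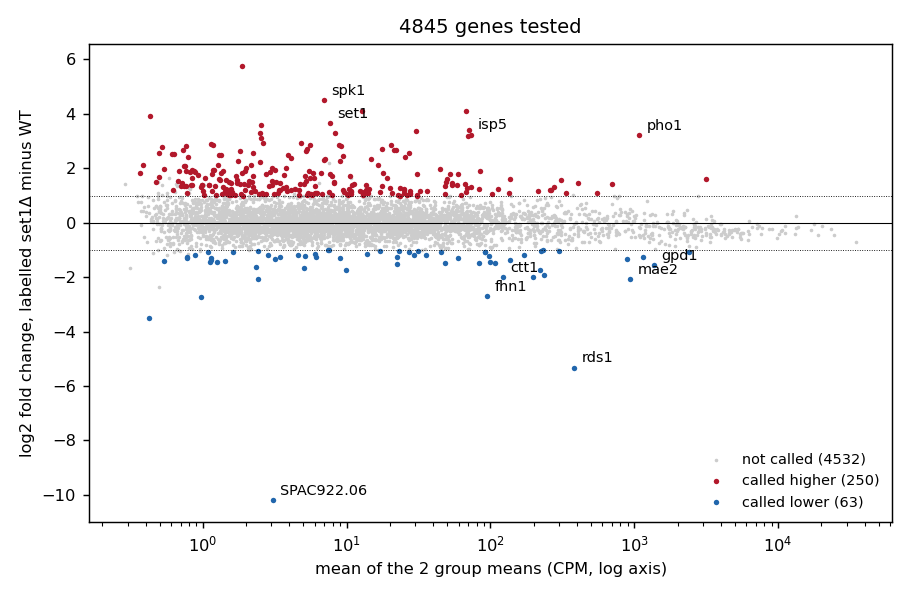
Log2 fold change (y axis, labelled *set1*Δ minus WT) against the mean of the group means (x axis, CPM, log axis) for 4845 tested genes. Red points are the 250 genes called higher, blue points the 63 called lower and dotted lines mark a 2-fold change. The fitted value of *SPAC922.06*, whose 3 libraries labelled *set1*Δ are at 0, depends on the fit's prior count and is no bound.

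*spk1*, the MAP kinase of the pheromone pathway, had the largest rise among genes at 5 CPM or more. Its counts were 16, 8 and 13 in WT and 365, 349 and 315 in the libraries labelled *set1*Δ, a 22.8-fold rise (log2 fold change 4.51, SE 0.263, adjusted p = 4.75e-06). The WT libraries were all low and the groups were far apart. It was also higher than the mean of the H2B mutants (2.15). Scaled over 24 libraries, mutant means ran from 1.31 CPM (*htb1-E75Q*) to 13.7 CPM (*htb1-E112K*), against 15.5 CPM in the libraries labelled *set1*Δ. *spk1* shares 77.3% of its length with a gene on the other strand, the uroporphyrinogen-III synthase gene *ups1*, whose own log2 fold change was 0.80 (SE 0.145, adjusted p = 0.00267), below 2-fold. A larger fitted change was found for *snu66*, a subunit of the splicing tri-snRNP, at 5.77 (adjusted p = 2.24e-05), but its level was low, 0.0607 CPM in WT and 3.7 CPM in the libraries labelled *set1*Δ, and *ptb1* overlaps it fully on the other strand. *snu66* is outside the rule for named genes and was picked after its values were seen.

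The acid phosphatase gene *pho1* reached the highest level among the 10 strongest rises. It had 5485, 4869 and 2875 counts in WT and 39487, 65043 and 51147 in the libraries labelled *set1*Δ. In CPM these were 272, 245 and 119 against 1811, 2234 and 1822, so the lowest library labelled *set1*Δ was several times the highest WT library. The fold change was 9.23 (log2 3.21, SE 0.269, adjusted p = 3.33e-05). *fub2* (PI31-like proteasome regulator) lies downstream of *pho1* on the same strand of chromosome II, at 4453078 to 4454161 against 4447506 to 4449053 for *pho1* (ASM294v3). Its counts were 56, 13 and 20 in WT and 545, 596 and 759 in the libraries labelled *set1*Δ (log2 fold change 4.10, SE 0.361, adjusted p = 3.84e-05), and a non-coding RNA covers 80.7% of it on the other strand. In the comparison with the mean of the H2B mutants *fub2* was at 0.92 and was not called. Scaled over 24 libraries, its mean was 57.3 CPM in *htb1-P102L* and 28.2 CPM in the libraries labelled *set1*Δ. The phosphate transporter gene *pho84* also rose, from 160 ± 33.8 to 394 ± 23.7 CPM (log2 fold change 1.31, adjusted p = 0.000189), with a non-coding RNA over 89.5% of it. These were 2 of the 8 tested genes of phosphate acquisition, and the other 6, among them the phosphatase gene *pho4* (0.10) and the transporter gene *tgp1* (0.02), lay between -0.42 and 0.46. The list median was 0.16 against 0.01 for all tested genes.

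In the list of nitrogen and amino acid uptake, 2 of 16 tested genes rose (list median 0.07), against 5.16% higher over all genes. That share also applies to the hexose and iron genes that follow, and nothing is read from counts of 1 or 2 genes. *isp5*, an amino acid permease gene known from nitrogen-starved cells, had 248, 258 and 401 counts in WT and 3144, 3666 and 3532 in the libraries labelled *set1*Δ. This was a 9.43-fold rise (log2 3.24, SE 0.142, adjusted p = 6.64e-07), with 126 to 144 CPM against 12.3 to 16.6. *isp5* was also higher than the mean of the H2B mutants (1.35). Scaled over 24 libraries, though, its mean was 168 CPM in *htb1-P102L* and 154 CPM in the libraries labelled *set1*Δ. The N-acetyltransferase gene *SPBC1271.07c*, in no list, had a similar rise, from 14.0 ± 4.45 to 126 ± 17.3 CPM (log2 fold change 3.18, SE 0.212). The ammonium transporter gene *amt3* rose from 9.92 ± 0.801 to 25.1 ± 3.56 CPM (log2 fold change 1.34, adjusted p = 9.12e-05), although a non-coding RNA covers 97% of it on the other strand. Of 14 tested genes of hexose uptake and glucose repression, the hexose transporter gene *ght7* (2.09) and the fructose-1,6-bisphosphatase gene *fbp1* (1.22) rose, and non-coding RNAs cover 84.6% and 100% of them on the other strand. Without WT replicate 3 the list held 3 higher genes. Of 12 tested iron genes, the ferric reductase gene *frp1* rose (1.19, adjusted p = 0.0162), a call that was lost without WT replicate 2 and without *set1*Δ-labelled replicate 3.

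Many genes at the chromosome ends rose. Of 91 genes with the names of cosmids from these regions, 51 were high enough to be tested, and 19 of them were called higher and 0 lower, against 5.16% higher and 1.3% lower over all genes. By adjusted p alone 22 were higher and 1 lower, against 14.7% and 11.7% over all genes. At an unadjusted p below 0.05 the counts were 25 and 2, against 1016 and 869 of all 4845 genes tested. The list median was 0.59 on the log2 scale, or 0.81 with scaling to the total count. *SPAC977.18* had 553, 114 and 89 counts in WT against 3015, 3041 and 4013 (log2 fold change 3.40, SE 0.566, adjusted p = 0.00168). WT replicate 1 was the highest of the WT libraries for this gene. *aes1*, named as an enhancer of RNA-mediated gene silencing, rose from 4.91 ± 2.35 to 35.5 ± 6.16 CPM, and the galactose gene *gal10* from 0.632 ± 0.599 to 4.58 ± 0.549 CPM, although *tgd1* overlaps *gal10* over 93.7% of its length.

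The WT libraries differed widely at several of these genes. The hydroxyacid dehydrogenase gene *SPAC186.07c* had 273, 1 and 57 counts in WT and 1445, 1393 and 1435 in the libraries labelled *set1*Δ (log2 fold change 3.38, SE 0.749, adjusted p = 0.00737), and its call was lost with DESeq2. Among the subtelomeric RecQ-type helicase genes, *tlh2* had 0, 0.804 and 3.06 CPM in WT and 13.4, 8.21 and 7.76 CPM in the libraries labelled *set1*Δ. *tlh1* (SPAC212.11) had 10, 4 and 16 counts in WT and 1, 91 and 292 in those labelled *set1*Δ, so its groups overlapped, and its call (adjusted p = 0.0369) was lost in 4 of the 6 fits that left out 1 library. Assembled transcripts MSTRG.3037, MSTRG.3044 and MSTRG.4723, named *tlh1* by similarity in the files, were called higher too (log2 fold changes 1.94 to 2.22). Such copies are near identical, and counting may have split reads between them. The number of higher members in the list was 22 without WT replicate 3 and fell to 12 with DESeq2 and 9 among genes with at least 10 counts in every library.

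**Figure D3:**
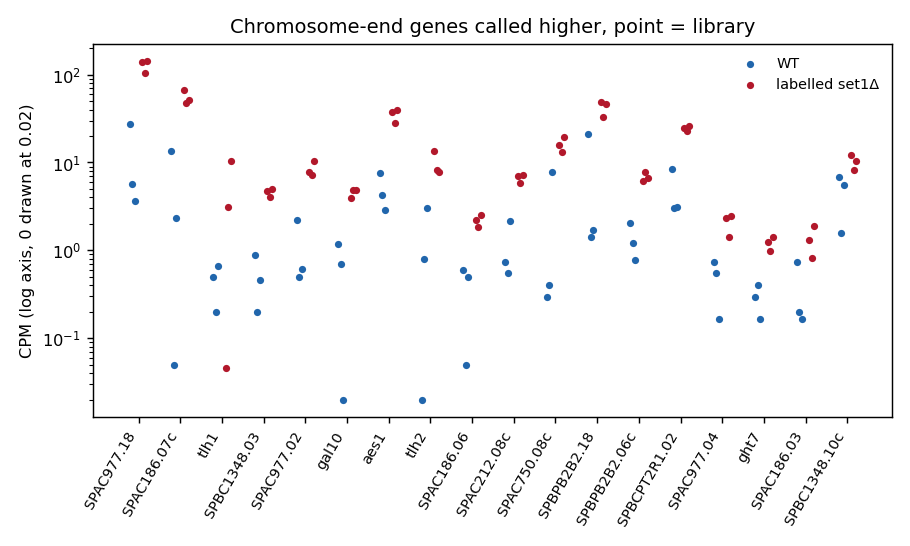
CPM (y axis, log axis, 0 drawn at 0.02) of 18 of the 19 chromosome-end genes called higher (x axis, ordered by log2 fold change), with 1 point for each of the 3 WT (blue) and the 3 libraries labelled *set1*Δ (red). The groups are apart in every gene shown except *tlh1*, whose lowest red point is at 0.0459 CPM.

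Of the Tf2 retrotransposons, 7 of 14 copies were tested and *Tf2-2* was called higher (adjusted p = 0.0386), a call that was lost in every fit that left out *set1*Δ-labelled replicate 1, 2 or 3 or WT replicate 3. *Tf2-3*, *Tf2-5*, *Tf2-6* and *Tf2-12* had the same counts in each of the 6 libraries, so the copies cannot be told apart. In the list of heterochromatin and RNA interference, 2 of 18 tested genes rose, the Dicer gene *dcr1* (0.597 to 1.61 CPM, log2 fold change 1.40, adjusted p = 0.0125) and *mit1*, the helicase of the SHREC complex (0.419 to 1.44 CPM, log2 fold change 1.77, adjusted p = 0.00253). Without *set1*Δ-labelled replicate 1 *dcr1* was not called. Over all genes 5.16% were called higher, a share that applies to each list of this paragraph, and nothing is read from counts of 1 or 2 genes. The heterochromatin proteins *swi6* (0.02) and *ago1* (0.10) gave small fitted changes. Of 11 genes of other histone methylation and linked deacetylation, *epe1*, for a JmjC protein that opposes heterochromatin, was the 1 that rose, from 4.24 ± 1.36 to 12 ± 0.656 CPM (log2 fold change 1.49, SE 0.211, adjusted p = 0.000698). In the comparison with the mean of the H2B mutants *dcr1* (-0.53), *mit1* (-0.11) and *epe1* (0.33) were not called.

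Genes of mating and meiosis were among those that rose against WT. Fission yeast turns these on through the transcription factor Ste11 when nutrients run out, and the receptors then signal through a G protein to the kinase Spk1. Of 12 tested genes of pheromone and mating, 5 were higher and 0 lower, against 5.16% and 1.3% over all genes, with a list median of 0.74 (0.96 with scaling to the total count). At an unadjusted p below 0.05, 8 were higher and 0 lower, against 1016 and 869 of the 4845 genes tested. The MADS-box factor gene *map1*, needed for P-specific genes, had 7, 7 and 4 counts in WT and 54, 60 and 46 in the libraries labelled *set1*Δ (log2 fold change 2.84, SE 0.355, adjusted p = 0.000349). The M-factor receptor gene *map3* had 59, 64 and 23 counts in WT and 261, 374 and 296 in the libraries labelled *set1*Δ (log2 fold change 2.34, adjusted p = 0.000525). *map3* lies within the histidine synthesis gene *his6* on the other strand over 99.8% of its length. *gpa1*, the G protein alpha subunit of the pheromone pathway, had 7.45, 7.59 and 7.62 CPM in WT and 20.5, 18.2 and 20.1 CPM in the libraries labelled *set1*Δ (log2 fold change 1.37, SE 0.118, adjusted p = 3.72e-05). The P-factor receptor gene *mam2* (1.16) and the P-factor gene *map2* (1.01) rose less. In the comparison with the mean of the H2B mutants the mating list had a median of 0.02. There 2 members were higher and 1 lower, against 1.77% and 5.41% over all genes.

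Of 11 tested meiosis genes, 4 were higher and 0 lower (5.16% and 1.3% over all genes), with a list median of 0.76. At an unadjusted p below 0.05, 7 were higher and 0 lower. In the comparison with the mean of the H2B mutants the list median was 0.15. There 1 member was higher and 0 lower, against 1.77% and 5.41% over all genes, and *mei2* (0.15) and *mei4* (0.16) were not called. *mei2*, the RNA-binding protein that starts meiosis, had 20, 8 and 23 counts in WT and 92, 101 and 81 in the libraries labelled *set1*Δ (log2 fold change 2.14, SE 0.304, adjusted p = 0.000687). The forkhead factor gene *mei4* (1.42) and the axis gene *rec10* (1.65) were called as well, although the *rec10* call was lost with DESeq2 and in 3 of the 6 fits that left out 1 library. *ste11* itself rose from 17.7 ± 6.15 to 37.1 ± 1.41 CPM (log2 fold change 1.07, SE 0.196, adjusted p = 0.00273). It lay just above the 2-fold threshold, and without WT replicate 3 its change was 0.89 and it was not called. Without WT replicate 2 the number of higher meiosis genes was 2. The other 7 of 18 meiosis genes and 6 of 18 mating genes were too low to be tested, among them *mde2* and *mat1-Mi* with no count in these 6 libraries.

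**Figure D4:**
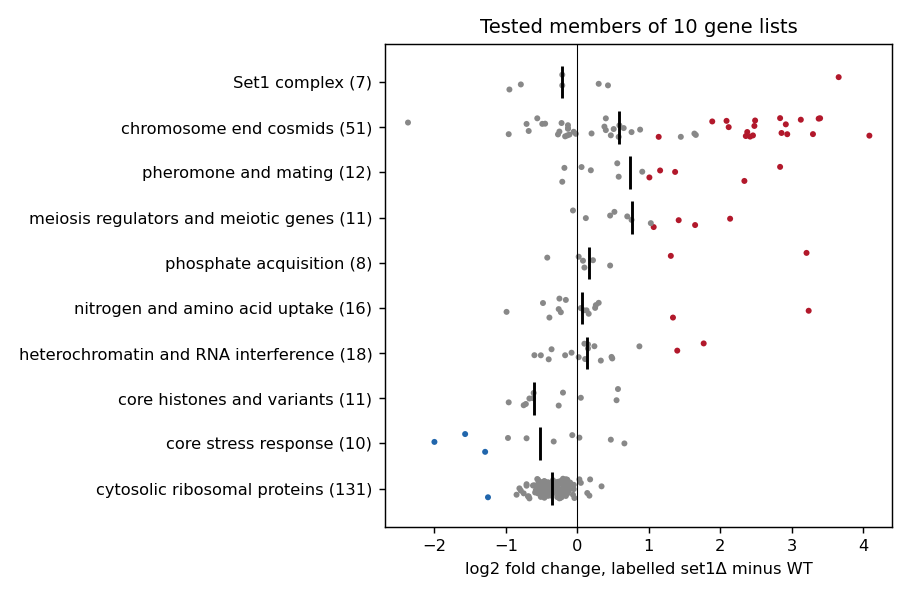
Log2 fold changes (x axis, labelled *set1*Δ minus WT) of the tested members of 10 gene lists (y axis, number tested in brackets). Each point is a gene (red higher, blue lower, grey not called), and black bars are list medians, from -0.61 for the histones to 0.76 for the meiosis genes.

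The genes that fell included enzymes of the stress response. In fission yeast the MAP kinase Sty1 and the bZIP factor Atf1 drive a core set of stress genes, and Atf1 binds the cAMP response element with the core TGACGT. Of 10 tested genes of the core set, 3 were lower and 0 higher, against 1.3% and 5.16% over all genes (6 and 2 at an unadjusted p below 0.05, against 869 and 1016 of 4845), with a list median of -0.52 (-0.28 with scaling to the total count). The catalase gene *ctt1* had 4425, 4611 and 3233 counts in WT and 1195, 1401 and 1208 in the libraries labelled *set1*Δ. It fell 4.01-fold (log2 fold change -2.0, SE 0.193, adjusted p = 6.83e-05), and every library labelled *set1*Δ was below every WT library. The glycerol-3-phosphate dehydrogenase gene *gpd1* had 45460, 40673 and 44255 counts in WT and 15470, 19296 and 19378 in the libraries labelled *set1*Δ (log2 fold change -1.57, SE 0.123, adjusted p = 2.14e-05). *pyp2*, a phosphatase gene that limits Sty1, went from 12.8 ± 1.22 to 5.22 ± 0.563 CPM (log2 fold change -1.29, adjusted p = 0.000194).

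The other 7 core stress genes did not pass both thresholds. The small heat shock gene *hsp9* (log2 fold change -0.97), and outside the list *atf1* itself (-0.99, SE 0.143, adjusted p = 0.00073) lay just inside the 2-fold threshold. Without WT replicate 3 both were called lower, *hsp9* at -1.07 (adjusted p = 4.25e-05) and *atf1* at -1.11 (adjusted p = 4.36e-05). *atf1* was also called lower with DESeq2 (-1.01), in the fit over 24 libraries (-1.05) and with a correction for gene length (-1.12). The small heat shock gene *hsp16* was at 0.03 (SE 0.171), the trehalase gene *ntp1* at -0.07 (SE 0.139), and the glutathione peroxidase gene *gpx1* at 0.47. The metallothionein gene *zym1* was at 0.66 (adjusted p = 0.0179). Without WT replicate 3 the number of lower genes in the list was 5. None of 18 genes of antioxidant defence and none of 14 heat shock and chaperone genes passed both thresholds in the edgeR fit of the 6 libraries or in DESeq2. At an unadjusted p below 0.05, 3 were higher and 2 lower in the former list and 2 higher and 3 lower in the latter, where 2 were called lower without WT replicate 3.

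The core TGACGT or its reverse complement ACGTCA stood in 11 of 62 promoters (17.7%) of the genes called lower and in 12 of 236 (5.08%) of the genes called higher, against 282 of 4789 (5.89%) of all tested genes. The windows searched ran from 250 bases before to 50 bases after the annotated gene start in ASM294v3. Of the 10 promoters of the core stress genes, 3 held TGACGT or ACGTCA. They were those of *ctt1*, *gpd1* and *ntp1*, and *ntp1* was not called. The windows of 30 bases around the core are shown for the lower genes *ctt1*, *gpd1*, *rds1* and *mae2*, read along the gene's strand with the core in capitals.
*ctt1* (chrIII:58875-58904, minus strand): attgtgcaaataTGACGTtggtaattctac
*gpd1* (chrII:4035431-4035460, plus strand): atgtcaggcatgTGACGTttggtatcacct
*gpd1* (chrII:4035480-4035509, plus strand): tgtagtgtttttACGTCAtttggtacggct
*rds1* (chrI:1667623-1667652, plus strand): gtaccaagtcacACGTCAagctgagaccga
*mae2* (chrIII:277369-277398, minus strand): ctgggctaatcgTGACGTttggtggttgac
The core began 59 bases before the annotated start of *ctt1*, 123 and 74 before *gpd1*, 104 before *rds1* and 124 before *mae2*. Of the other motifs searched on both strands, the CCAAT box stood in 59.7% of the lower promoters against 42.4% of all, and the heat shock element core GAANNTTC in 9.68% against 11.1%. The GATA site TGATAA stood in 27.4% against 26.6%. The HomolD box CAGTCACA and the cell cycle box ACGCGT were in 0 of the 62, against 2.82% and 3.19% of all promoters. The Ste11 core TTCTTTGTT stood in 4.66% of the promoters of genes called higher (11 of 236) and in 1.9% of all. A match is a description of these letters and was not tested as a binding site.

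*rds1*, which encodes a conserved fungal protein, had the largest fall among named genes still counted in the libraries labelled *set1*Δ. Its counts were 8393, 9494 and 32352 in WT and 285, 714 and 511 in the libraries labelled *set1*Δ (log2 fold change -5.32, SE 0.459, adjusted p = 3.72e-05). WT replicate 3 was the highest library, and without it the change was -4.58. A dubious gene, *SPAC343.20*, covers 88.8% of *rds1* on the other strand and was itself at -0.08 (SE 0.187). *SPAC922.06*, a predicted 3-oxoacyl-[acyl-carrier-protein] reductase, had 80, 127 and 195 counts in WT and 0 in all 3 libraries labelled *set1*Δ. Against a floor of 3 counts over the group it was at least 165-fold lower, a limit that covers counting error only. It was also at 0 in 7 of the 18 H2B mutant libraries.

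*fhn1*, a gene of plasma membrane organization, went from 3543, 3112 and 3877 counts in WT to 740, 692 and 533 (log2 fold change -2.69, SE 0.187, adjusted p = 9.33e-06). Further falls were found for the predicted zinc-cluster transcription factor gene *SPAC2H10.01* (-1.99), the hydrolase gene *SPAC25B8.12c* (-1.75) and *slt1* (-1.72). The cellulose-binding domain gene *SPAC2E1P3.05c* had 198, 215 and 705 CPM in WT and 91.9, 85.6 and 117 CPM in the libraries labelled *set1*Δ, and its change of -1.93 was -1.08 without WT replicate 3. Among 15 tested genes of septum separation and the cell wall, *adg2* fell (-1.02, adjusted p = 0.000254), and without WT replicate 3 it was at -0.92 and not called.

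Transcripts annotated as malic enzyme moved in opposite directions. The gene *mae2* (SPCC794.12c) had 26814, 31167 and 39732 counts in WT and 7520, 11754 and 9250 in the libraries labelled *set1*Δ, a 4.21-fold fall (log2 -2.07, SE 0.135, adjusted p = 6.39e-06). The chromosome-end gene *SPAC750.08c*, a predicted partial malic enzyme, had 6, 8 and 186 counts in WT and 346, 378 and 553 in the libraries labelled *set1*Δ (log2 fold change 2.46, SE 0.725, adjusted p = 0.0279). An assembled transcript, MSTRG.4279, which the files name *mae2* by similarity, had 9, 5 and 90 counts in WT and 351, 388 and 455 in the libraries labelled *set1*Δ (log2 fold change 3.28, SE 0.568, adjusted p = 0.00205). WT replicate 3 was the high WT library in both, and without it their changes were 5.51 and 5.42. Without WT replicate 2, or without any 1 of the libraries labelled *set1*Δ, *SPAC750.08c* was not called, nor was it with DESeq2. The files do not say how reads shared by similar copies were assigned, so the values of these 3 features are uncertain.

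The histone genes lay mostly below 0 without reaching 2-fold. Of 11 tested, 0 passed both thresholds in the edgeR fit of the 6 libraries or in DESeq2 (1 was lower in the fit over 24 libraries and 1 without *set1*Δ-labelled replicate 2), 6 were lower and 1 higher by adjusted p alone (7 and 1 at an unadjusted p below 0.05), and the list median was -0.61, or -0.42 with scaling to the total count. The H3 gene *hht3* had the lowest value, 969 ± 23.6 CPM in WT and 498 ± 26.5 CPM in the libraries labelled *set1*Δ (log2 fold change -0.96, adjusted p = 0.000176). The H2B gene *htb1* was at -0.26 (SE 0.115, adjusted p = 0.114). The H2A.Z gene *pht1* was higher by adjusted p, at 0.57 (adjusted p = 0.00277). Over all 4845 genes tested, 11.7% were lower and 14.7% higher by adjusted p alone, with a median of 0.01. At an unadjusted p below 0.05 the counts over all genes were 869 lower and 1016 higher. These values also apply to the ribosomal genes that follow. The cytosolic ribosomal protein genes showed a small, broad shift, with 125 of 131 below 0, 52 lower and 0 higher by adjusted p alone and a median of -0.35 (-0.13 with scaling to the total count). Only *rpl1603* passed both thresholds among them (-1.25, adjusted p = 6.88e-05), and *apl1* overlaps it fully on the other strand. Of 29 genes of amino acid and purine synthesis, *ade8* was lower (-1.03, adjusted p = 0.000626), a call that was lost without WT replicate 2 and without *set1*Δ-labelled replicate 1.

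In KEGG's cell cycle list 8 of 82 tested genes were higher and 0 lower (21 and 4 at an unadjusted p below 0.05), with a median of 0.15. Over all tested genes 5.16% were higher and 1.3% lower (1016 and 869 of 4845 at an unadjusted p below 0.05). *mug27*, a meiotic protein kinase, had 7.5, 5.48 and 4.51 CPM in WT and 37.8, 34.4 and 39.1 CPM in the libraries labelled *set1*Δ (log2 fold change 2.68, SE 0.17, adjusted p = 6.39e-06). A non-coding RNA covers 96.2% of *mug27* on the other strand. *cut1*, the separase gene, had 2.83, 1.76 and 2.32 CPM in WT and 9.13, 6.94 and 9.87 CPM in the libraries labelled *set1*Δ (log2 fold change 1.90, SE 0.212, adjusted p = 0.000161). The checkpoint clamp loader gene *rad17* also rose (1.87, adjusted p = 0.00281). With DESeq2 5 genes of the list were called higher, and without WT replicate 2 or without *set1*Δ-labelled replicate 3 there were 4. Without WT replicate 3 there were 6. Of 35 DNA replication genes, *mcm5* was called higher (1.01), and of 20 genes of homologous recombination, *rqh1* (1.10) and *tel1* (1.38) were. All 3 calls depended on single libraries: *mcm5* was not called without WT replicate 2, WT replicate 3 or *set1*Δ-labelled replicate 1, *rqh1* not without WT replicate 2, and *tel1* not in 5 of the 6 fits that left out 1 library. The replication licensing gene *cdt1* (1.49, adjusted p = 0.00133) was the 1 riser among 13 genes of G1 to S transcription. In KEGG's MAPK list, 4 of 60 genes were higher, among them *spk1*, *map3* and *mam2*, and 2 lower (*ctt1* and *gpd1*), against 5.16% and 1.3% over all genes, and nothing is read from these counts. None of 36 proteasome genes, 59 genes of oxidative phosphorylation or 22 of the citrate cycle passed both thresholds in the edgeR fit of the 6 libraries or in DESeq2. At an unadjusted p below 0.05, 7, 13 and 12 of them were higher and 1, 6 and 1 lower.

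Against the mean of the 6 H2B mutants, in 1 edgeR fit over all 24 libraries, the balance was the reverse. Of 5030 genes tested, 361 (7.18%) were called, 89 (1.77%) higher and 272 (5.41%) lower in the libraries labelled *set1*Δ. With scaling to the total count 42 were higher and 308 lower, the median of all genes moved from -0.06 to -0.29, and the share of higher calls went from 24.7% to 12%. Both comparisons share the libraries labelled *set1*Δ, so their values are given side by side. Only 37 genes were called higher in both comparisons, and 24 were called lower in both. At 5 CPM or more, 20 of the higher and 42 of the lower genes had the 3 libraries labelled *set1*Δ beyond all 21 others. These genes were first called on the same libraries, so this is no separate support. The share over all tested genes was not counted.

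Stress genes were lower than in the H2B mutants. Of the 10 core stress genes, 9 were lower and 0 higher, with a list median of -2.33 against -0.06 over all genes. Over all 5030 genes tested, 5.41% were lower and 1.77% higher, and these shares also apply to the antioxidant genes below. CPM in this comparison were scaled over 24 libraries. *ctt1* had 50.8 to 63.2 CPM in the libraries labelled *set1*Δ, 165 to 288 in WT, and a lowest, median and highest value of 62.4, 680 and 1607 over the 18 H2B mutant libraries. Its log2 fold change was -3.29 (SE 0.315, adjusted p = 1.2e-07), and 17 of the 18 H2B libraries were above every library labelled *set1*Δ. *hsp9* had 204 to 251 CPM in the libraries labelled *set1*Δ, 409 to 522 in WT and 419, 2156 and 3103 (lowest, median and highest) in the H2B mutants (-2.88, SE 0.237, adjusted p = 4.11e-08). *hsp16*, at 37.3 to 45.1 CPM in the libraries labelled *set1*Δ and 30.7 to 52.6 in WT, reached a median of 302 CPM in the H2B mutants (-2.69, SE 0.395, adjusted p = 2.83e-05). *gpd1* (-2.41), *pyp2* (-2.50), *zym1* (-2.25), *hsp104* (-1.86), *ntp1* (-1.79) and the trehalose synthase gene *tps1* (-1.72) were lower too. *gpx1* was at -0.91. *atf1* was lower by -1.84 on the log2 scale (SE 0.251, adjusted p = 1.17e-05). Among the H2B mutants *htb1-E34K* had the lowest means, 173 ± 98.5 CPM of *ctt1* and 577 ± 153 CPM of *hsp9*. Of 18 antioxidant genes 5 were lower, among them the sulfiredoxin gene *srx1* (-1.98) and the glutaredoxin gene *grx1* (-1.12). The core TGACGT or ACGTCA stood in 49 of 268 promoters (18.3%) of the genes lower than in the H2B mutants. Over all matched promoters it stood in 303 of 5110 (5.93%). The heat shock element core GAANNTTC stood in 46 of the same 268 (17.2%), against 11.1% of all matched promoters.

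**Figure D5:**
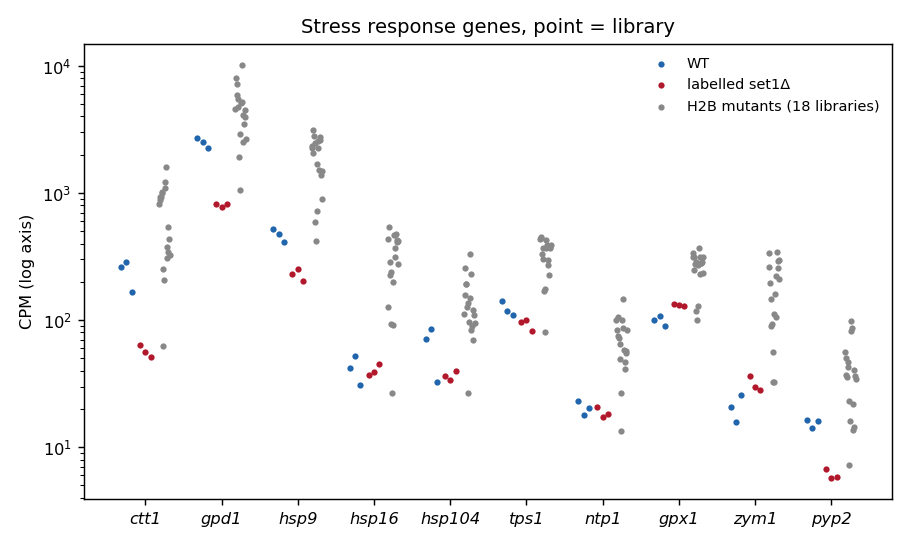
CPM (y axis, log axis, scaled over 24 libraries) of 10 core stress genes (x axis) in the 3 WT libraries (blue), the 3 libraries labelled *set1*Δ (red) and the 18 H2B mutant libraries (grey), 1 point per library. The red points lie below every WT point for *ctt1*, *gpd1*, *hsp9*, *tps1* and *pyp2*, above every WT point for *gpx1* and *zym1*, and overlap WT for *hsp16*, *hsp104* and *ntp1*.

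The largest falls of genes apart from all 21 other libraries were those of *rds1* (-5.47), *fhn1* (-3.55), *hsp9*, the meiotically upregulated gene *mug35* (-2.88) and the SBDS-family gene *SPBC21C3.19* (-2.77). *rds1* had 15.1 to 28.7 CPM in the libraries labelled *set1*Δ and no less than 47 CPM in any H2B mutant library. Of the genes higher than in the H2B mutants and apart from all other libraries, *SPAC750.08c* (3.31) and *set1* (2.87, SE 0.249, adjusted p = 4.11e-08) had the largest changes beside the malic enzyme-like transcript MSTRG.2 (2.95). *pho84* had 429 to 490 CPM in the libraries labelled *set1*Δ, and in the H2B mutants 17.4, 134 and 387 CPM as the lowest, median and highest values (2.12, SE 0.198, adjusted p = 9.63e-08). *pho1* (1.88) and *pho4* (1.20) were higher as well, so that 3 of 8 phosphate genes were called in this comparison, against 1.77% higher over all genes. The hemoprotein reductase gene *SPCC330.03c* had 26.6 to 46.7 CPM in the libraries labelled *set1*Δ and at most 25.6 CPM in an H2B mutant library (1.90, SE 0.177). Of the chromosome-end genes 10 were higher and 10 lower than in the H2B mutants, with a median of -0.17. Over all genes 1.77% were higher and 5.41% lower. *htb1*, the gene mutated in the H2B strains, was lower in the libraries labelled *set1*Δ than in the mean of those strains (-1.87). Its level varied widely among them, with mean CPM of 10727 (*htb1-D67N*), 6554 (*htb1-E75Q*), 5455 (*htb1-E112K*), 1553 (*htb1-P102L*), 1050 (*htb1-G52D*) and 997 (*htb1-E34K*). The libraries labelled *set1*Δ had a mean of 797 CPM and WT 1004 CPM, so *htb1-G52D* and *htb1-E34K* lay near WT. The cell wall gene *gas1* was higher than in the H2B mutants (1.62) and so was *eng1* (1.16), the glucanase that separates daughter cells. Neither was called higher than in WT, where *gas1* was at 0.29 (adjusted p = 0.154). The mean of *gas1* was 2843 CPM in the libraries labelled *set1*Δ, 2433 CPM in WT and 482 to 1464 CPM in the H2B mutants.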

How the data were processed

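The authors filtered reads with fastp, removed rRNA reads with Bowtie2, aligned the rest to Ensembl release 45 with HISAT2 and quantified genes with StringTie. The notes of the submitters also name RSEM and DESeq2, and strand use is not given in the sources used here. Their deposited tables hold read counts per gene and library, which were analysed here, and FPKM (scaled by transcript length and mapped reads by the authors), used in 1 alternative as log2(FPKM + 1). Columns of log2 fold changes, p-values and false discovery rates hold the authors' own comparisons with WT and were not used. Of 5195 genes, 5111 matched ASM294v3 (RefSeq) by locus tag. Its build may differ from the authors', so coordinates, lengths and promoters are those of ASM294v3.

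Counts were tested with edgeR 4.0.16 (R 4.3.3: filterByExpr, TMM, glmQLFit, glmQLFTest), 3 libraries against 3, with calls at an adjusted p (Benjamini-Hochberg) below 0.05 and 2-fold or more. The study describes independent biological repeats. The H2B comparison used all 24 libraries. SEs come from the fit and SDs from 3 libraries. On simulated counts, 98% of 200 genes changed by a log2 fold of 2 were called against WT among 4845, with 1 false call, and 96.5% against the H2B mutants among 5030, with 2. These counts were drawn with the spread of the fit itself, as many genes rose as fell, and smaller changes were not simulated. They check that the test runs and do not give the error rate of the calls.

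Named genes are the Set1 complex, the 10 strongest calls in each direction without overlap at 5 CPM or more, up to 4 called and 2 uncalled members per list, and 5 per direction against the H2B mutants. The members and lists were chosen with earlier results of these data known. Not matched were *hba2*, *gsh2*, *hsp60*, *mat1-Pc* and *mat1-Pi*. Alternatives were DESeq2 1.42.0, total-count scaling, no filter, at least 10 counts, a replicate block, 1 fit over 24 libraries, limma 3.58.1 on log2(FPKM + 1), the adjusted p alone and each library left out. A gene-length correction was added after the data were seen. Python 3.11.15, pandas 2.3.3, NumPy 2.4.6 and matplotlib 3.10.9 were used for the rest. A few genes and motifs that meet these rules are not reported here.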

Additional observations from a re-analysis of the deposited data

How the results depend on the processing

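Against WT, 250 genes were higher and 63 lower. The counts were 165 and 20 with limma on log2(FPKM + 1), 381 and 35 with total-count scaling, and 712 and 568 by the adjusted p alone. DESeq2 gave 223 and 69, the fit over 24 libraries 190 and 70, at least 10 counts 195 and 52, no filter 256 and 66, and a correction for gene length (added once the data had been seen) 199 and 84. Leaving out 1 library gave 201 to 269 higher and 59 to 87 lower. Against the H2B mutants (89 higher, 272 lower), the higher count was 56 with at least 10 counts and 42 with total-count scaling, and the adjusted p alone gave 640 higher and 743 lower. Leaving out 1 library gave 71 to 100 higher and 212 to 297 lower. The *set1* change stayed between 1.99 (limma, on the scale of log2(FPKM + 1)) and 3.86 and was called in every fit. Of 895 values of named genes under alternatives, 0 changed sign, 32 of the 62 named genes called against WT lost their call in at least 1 alternative, and 18 in an alternative other than limma. Without WT replicate 3 the lists of nitrogen uptake and of amino acid and purine synthesis each held 1 more lower gene and KEGG's MAPK list 3. The replicate block gave 263 higher and 63 lower against WT, and 88 and 261 against the H2B mutants. Deviations of same-numbered libraries correlated at 0.053, 0.079 and -0.124, and those of differently numbered ones at -0.139 to 0.074. No pairing by number was seen, but with 3 libraries per group these values cannot exclude it. Low counts limit precision among the higher genes, with a median of 2.03 CPM in WT. The cause of these shifts was not tested.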

Other observations

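Gene length differed little between the sets. Over 4790 tested genes with a length in ASM294v3 the median was 1818 bases, against 1919 bases for the genes called higher and 1557 bases for those called lower, and the correlation of log2 fold change with log2 length across genes was 0.082. Genes are not independent replicates, and this value is a description. Of the genes called higher, 47.6% were overlapped over at least 50% of their length by an annotated gene on the other strand, against 44.6% of all tested genes. The spread within groups also differed. Pairs of WT libraries gave a chi-square per gene of 32.7 to 122, with both pairs that hold WT replicate 3 at 100 or more, and pairs of libraries labelled *set1*Δ gave 11.5 to 26.1.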
